A study of Mus musculus with 2 samples.

Results

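Interferon-induced genes were compared between livers of calorie-restricted (CR) and ad libitum fed (AL) mice. The group was defined by a list of 42 gene symbols, covering antiviral effectors, GTPases of the interferon gamma response, RNA sensors, interferon receptors, signalling factors and genes of peptide presentation. A member was read from probe sets that the platform annotation gives exactly 1 symbol. By that rule 40 of the 42 genes had a probe set, among 18193 genes on the array. All mice were male wild-type C57BL/6J, an inbred laboratory strain, housed singly, 8 weeks old at the start and 5 months old in the labels. The CR group received 20% less food for 1 week and 40% less for the next 11 weeks. The AL group ate freely over the same 12 weeks. RNA from the livers of 3 mice was combined for each diet, and each pool was hybridised to 1 Affymetrix array of 45101 probe sets, so no spread between mice and no p-value can be given. The 2 pools are compared, not the diets over animals. In RNA of a whole liver, fewer cells of a type and less RNA per cell cannot be told apart.

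Interferons are secreted proteins that warn cells of viruses and other intracellular microbes. Type I interferons bind the receptor of Ifnar1 and Ifnar2 and act on target genes that carry the interferon-stimulated response element (ISRE). Interferon gamma binds the receptor that includes Ifngr1 and acts at gamma-activated sites (GAS). In liver, hepatocytes and Kupffer cells, the resident macrophages, both respond, and many of the target genes have a basal level without infection.

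The values are intensities made with RMA, a method that removes background, brings the arrays to 1 distribution and reduces the probes of each set to a single value. They are on a linear scale, with medians over all probe sets of 7.42 in CR and 7.35 in AL. Where a gene had several probe sets, the one brightest on average stood for it. A gene counted as measured if it reached 7.38, the median over both arrays together, in at least 1 pool. Differences are log2 intensity of CR minus that of AL. By this rule 12644 of 18193 genes were measured, with a median difference of -0.02 and 95% of them between -1.04 and 0.89. Because of that step in RMA, each difference is relative to the typical gene. Hybridisation control transcripts were brighter on the CR array, and scaling on them moved the median gene to -1.04, or to -0.40 with the Cre control alone. Such a scaling shifts every gene by 1 amount, so by construction it leaves the distance between the member median and the median gene (-0.06) as it was. The controls themselves did not share 1 offset, which ran from 1.32 for a BioB control to 0.33 for the brighter Cre. A scaling that follows intensity in the controls was not run. Hepatocyte markers were bright in both pools, with albumin (Alb) at 11794 in CR and 12765 in AL. The 3′ to 5′ ratio of the actin control was 89.7 in CR and 83.5 in AL, and that of the Gapdh control was 53.2 in CR and 46.9 in AL, a strong 3′ bias on both arrays. The middle probe set of the actin control stood at 69.7 in CR against 213 in AL (-1.61). That of Gapdh stood at 131 in CR against 283.5 in AL (-1.11). Their 3′ probe sets were at -0.73 and -0.67, so the drop from the 3′ end to the middle was steeper in CR. Every probe set of both controls was lower in CR, and the bearing of this on the lower readings of members was not tested.

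Of the 40 members with a probe set, 37 were measured, 3 lay below the limit in both pools and 2 of the measured ones lay below it in 1 pool. Trim25 and Rsad2 were at least 2-fold higher in the CR pool, though at only 0.12 and 0.10 when scaled on all hybridisation controls, and Ifi47, Ifnar2 and Ifih1 were at least 2-fold lower. These 2 and 3 members are 5.41% and 8.11% of the 37, against 1.80% of all measured genes at least 2-fold higher and 2.79% at least 2-fold lower. With a 1.5-fold rule, 4 members (10.8%) were higher and 6 (16.2%) lower, against 6.76% and 9.49% of all measured genes. The 4 include Gbp2, which lay below the limit in AL and has a bound of only 1.05-fold. Among the 35 members above the limit in both pools, 3 (8.57%) were at least 1.5-fold higher and 6 (17.1%) lower, against 6.70% and 9.25% of the 11605 genes above it in both. The other 27 members were within 1.5-fold. In all, 15 members lay above 0 and 22 below, or 59.5% below, against 52.1% of all measured genes. The median of the members was -0.08, and they ran from -1.16 to 1.14. The counts rest on single arrays: the probe sets of a gene averaged gave 0 members at least 2-fold higher and 3 lower, with B2m in place of Ifnar2. Trim25 was then at 0.92 and Rsad2 at 0.39. With that averaging, 0.964% of all measured genes were higher and 2.02% lower.

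**Figure D1:**
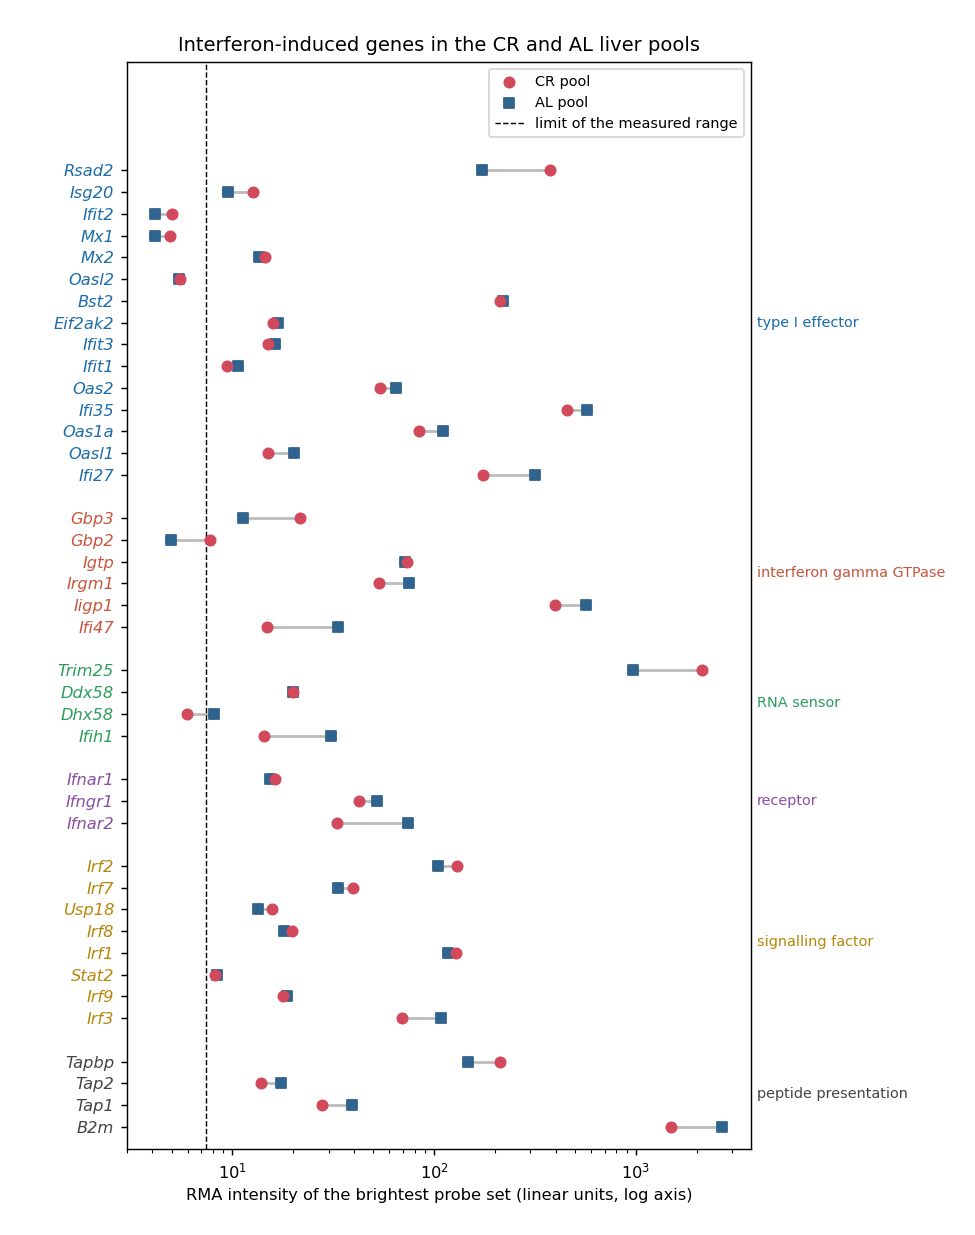
RMA intensity of the brightest probe set of each of 40 members in the CR pool (red circles) and the AL pool (blue squares) on a log axis, by role, with the limit of 7.38 as a dashed line. Trim25 and Rsad2 lie to the right in CR, Ifi47, Ifih1 and Ifnar2 to the left, and Ifit2, Mx1 and Oasl2 lie below the limit in both pools.

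The 5 members past 2-fold come from several roles and share no direction. For orientation, the 250 bases before the transcription start of each are shown, from RefSeq (GRCm38.p6), 5′ to 3′ on the gene's strand, with matches to the ISRE core or the GAS in capitals. The ISRE core was searched as GAAA and GAAA with any 2 bases between them on either strand, and the GAS as TTCNNNGAA, which reads the same on both strands.
Trim25 (chr11:88999153-88999402, plus strand): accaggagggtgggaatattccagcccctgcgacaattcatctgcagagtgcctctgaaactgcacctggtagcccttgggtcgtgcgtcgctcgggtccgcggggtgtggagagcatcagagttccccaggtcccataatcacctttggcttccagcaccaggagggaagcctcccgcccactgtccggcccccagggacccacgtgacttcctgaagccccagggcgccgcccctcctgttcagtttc
Rsad2 (chr12:26456453-26456702, minus strand): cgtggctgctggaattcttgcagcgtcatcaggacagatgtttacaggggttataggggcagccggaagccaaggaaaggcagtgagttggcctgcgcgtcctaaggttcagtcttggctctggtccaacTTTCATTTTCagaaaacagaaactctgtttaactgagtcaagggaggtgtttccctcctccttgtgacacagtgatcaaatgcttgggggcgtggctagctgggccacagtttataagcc
Ifi47 (chr11:49076337-49076586, plus strand): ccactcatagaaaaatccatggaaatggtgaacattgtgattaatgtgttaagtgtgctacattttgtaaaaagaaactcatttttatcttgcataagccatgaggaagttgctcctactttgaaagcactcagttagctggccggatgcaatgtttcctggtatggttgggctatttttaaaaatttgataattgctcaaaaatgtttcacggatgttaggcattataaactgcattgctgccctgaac
Ifnar2 (chr16:91372533-91372782, plus strand): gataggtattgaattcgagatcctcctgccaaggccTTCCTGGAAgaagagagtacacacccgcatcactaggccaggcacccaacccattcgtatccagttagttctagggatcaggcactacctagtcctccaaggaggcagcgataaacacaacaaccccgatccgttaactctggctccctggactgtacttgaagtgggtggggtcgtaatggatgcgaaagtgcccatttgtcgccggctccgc
Ifih1 (chr2:62646256-62646505, minus strand): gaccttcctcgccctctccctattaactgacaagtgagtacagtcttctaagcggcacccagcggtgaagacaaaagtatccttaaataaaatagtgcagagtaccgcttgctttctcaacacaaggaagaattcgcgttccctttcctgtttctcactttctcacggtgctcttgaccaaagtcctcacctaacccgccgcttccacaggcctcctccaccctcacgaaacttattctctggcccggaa
In these stretches Rsad2 held an ISRE core at position -120 and Ifnar2 a GAS at -214, counted from the start. Trim25, Ifi47 and Ifih1 held neither letter pattern here, and Ifih1 held an ISRE core 33 bases into the transcript.

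Among the type I effectors, the proteins that act on viral RNA and virus particles, Rsad2 was the only one of 12 measured genes past 2-fold. Rsad2 encodes viperin, a radical SAM enzyme that makes a chain-terminating nucleotide. Its brightest probe set stood at 375 in CR against 173 in AL, a difference of 1.12, the 163rd highest of 12644. Its other probe set in the measured range was dim, at 10.7 in CR against 10.5 in AL, a difference of 0.03. The probe sets thus do not show the same change, though the dim one lies near the limit. Ifi27, a mitochondrial and nuclear envelope protein, was lower, at 174 in CR against 317 in AL (-0.86). Its other probe set was also lower, at 47.2 in CR against 68.2 in AL (-0.53). Ifi35, a leucine zipper protein, stood at 454 in CR against 572 in AL (-0.33). The other Ifi35 probe sets were lower by more, at -1.10 and -0.82, with 22.7 in CR against 48.6 in AL and 23.5 in CR against 41.4 in AL. All probe sets of Ifi27 and Ifi35 were thus lower in CR, by differing amounts.

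The oligoadenylate synthetases make the messenger that switches on RNase L when double-stranded RNA is present. Oas1a stood at 84.2 in CR against 110 in AL (-0.38). Oas2 stood at 54.0 in CR against 64.8 in AL (-0.26). The synthetase-like Oasl1, which in mouse limits the translation of Irf7, stood at 14.99 in CR against 20.3 in AL (-0.44). These 3 genes were lower in CR by less than 1.5-fold, while their relative Oasl2 lay below the limit in both pools, at 5.47 in CR and 5.44 in AL.

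The Ifit proteins, which bind viral RNA, were close to the limit. Ifit1 stood at 9.36 in CR against 10.7 in AL (-0.19). Ifit3 stood at 15 in CR against 16.3 in AL (-0.12). Ifit2 lay below the limit in both pools, at 5.00 in CR and 4.16 in AL, so no fold is given. Bst2, or tetherin, is a membrane protein that holds budding virions at the cell surface. It stood at 213 in CR against 220 in AL (-0.05). The kinase gene Eif2ak2 (PKR), which stops translation when it binds double-stranded RNA, stood at 15.9 in CR against 16.8 in AL (-0.08). The exonuclease gene Isg20 stood at 12.7 in CR against 9.56 in AL (0.41). None of these members reached 1.5-fold. The dynamin-like GTPase gene Mx2 stood at 14.5 in CR against 13.6 in AL (0.09), and Mx1, of which C57BL/6 mice carry a defective allele, lay below the limit at 4.89 in CR and 4.14 in AL. Of the 12 measured effectors 9 lay below 0, with a median of -0.16. Neither Ifi44 nor Isg15 could be read by the rule on single symbols. A probe set annotated to both Isg15 and Gm9706 stood at 16.4 in CR against 26.4 in AL (-0.69), and it is not counted for Isg15.

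The GTPases that interferon gamma induces gather on the vacuoles of intracellular parasites and bacteria. They lay in both directions, with 3 of 6 above 0, 3 below and a median of -0.23. Ifi47, an immunity-related GTPase also called Irgd, stood at 14.8 in CR against 33.2 in AL (-1.16), 2.24-fold lower on its only probe set. Iigp1, or Irga6, stood at 397 in CR against 567 in AL (-0.51), and its other probe set at 327 in CR against 679 in AL (-1.06). Irgm1, a regulatory member of the family, stood at 53.4 in CR against 75 in AL (-0.49). These 3 immunity-related GTPases were lower in CR, whereas Igtp, or Irgm3, stood at 73.1 in CR against 71.6 in AL (0.03). Gbp3, a guanylate-binding protein gene, was higher, at 21.5 in CR against 11.3 in AL (0.93, or -0.09 when scaled on all hybridisation controls). Gbp2 stood at 7.77 in CR and lay below the limit in AL, at least 1.05-fold higher, which is no more than a reading near the limit. Of the guanylate-binding genes outside the member list, only Gbp6 and Gbp7 were measured. Gbp6 was lower in CR, at -0.63, with another probe set at -0.49. Gbp7 was little changed on its brightest probe set, at 0.08, with another at -0.54. Gbp8 lay below the limit in both pools, and the others listed had no probe set with 1 symbol.

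**Figure D2:**
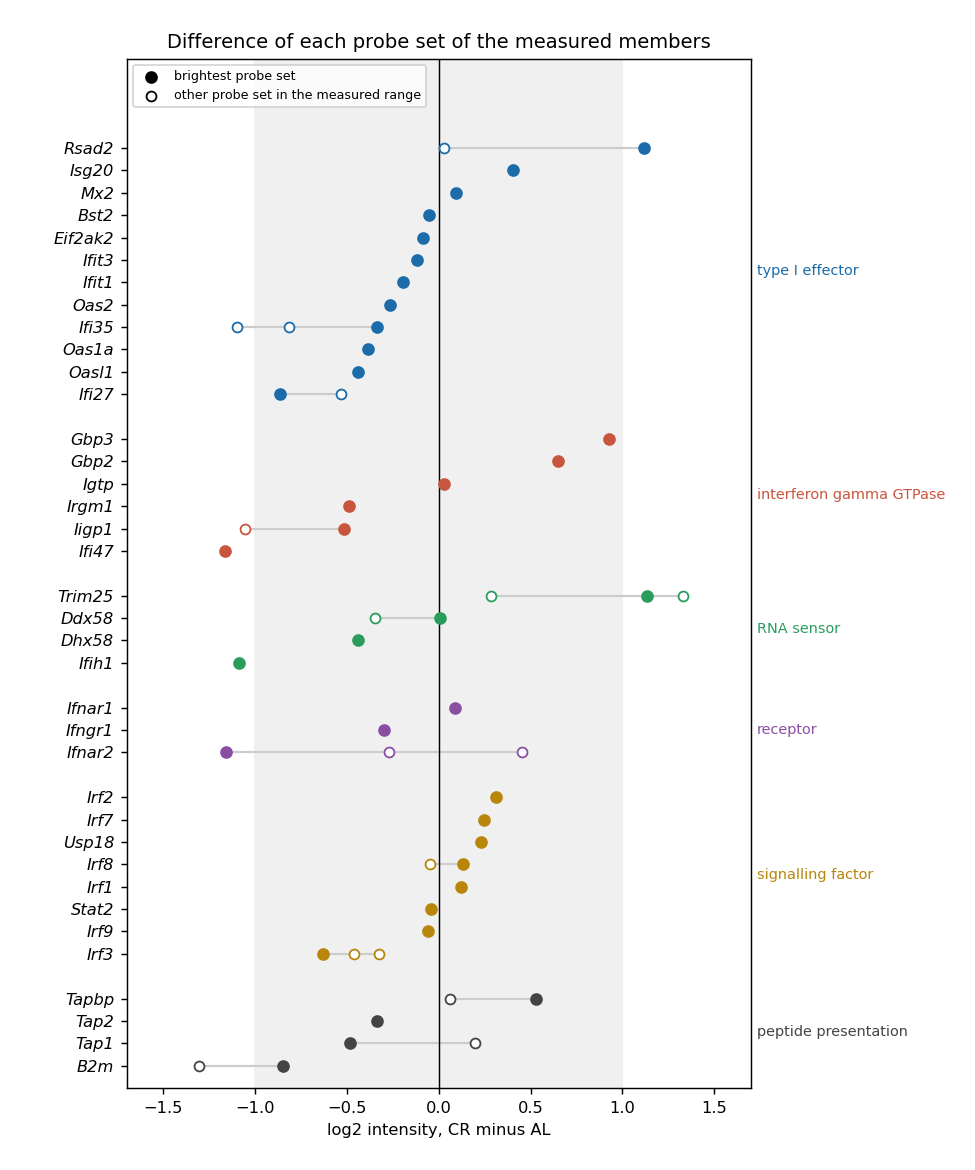
Log2 difference, CR minus AL, of each probe set in the measured range for the 37 measured members, by role; filled points are the brightest probe set, open points the others, a grey line joins those of a gene and the grey band marks less than 2-fold. The probe sets of Ifnar2 run from -1.16 to 0.45, while those of Trim25 are all above 0 and those of B2m, Ifi35, Ifi27, Iigp1 and Irf3 all below it.

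The RNA sensor group, which includes Trim25, gave the widest spread among the roles, from -1.09 to 1.14. Trim25 set its upper end, and the 3 helicases Ifih1, Ddx58 and Dhx58 ran only from -1.09 to 0.01. Trim25, the ubiquitin ligase that activates RIG-I, stood at 2129 in CR against 969 in AL, a difference of 1.14 and a 2.20-fold higher level, the 154th highest of 12644. Its other probe sets stood at 849 in CR against 338 in AL (1.33) and at 24.4 in CR against 20.0 in AL (0.28). All 3 were higher in CR, and the bright pair past 2-fold, though the suffixes of all 3 mark probes shared between transcripts. Ifih1, or MDA5, which senses long double-stranded RNA, stood at 14.4 in CR against 30.6 in AL (-1.09), 2.13-fold lower on its only probe set. Ddx58, or RIG-I, which senses short RNA with an uncapped end, stood at 20.0 in CR against 19.9 in AL (0.01). Its other measured probe set stood at 7.18 in CR against 9.13 in AL (-0.35). Dhx58, or LGP2, a regulator of both, stood at 8.06 in AL and lay below the limit in CR, at least 1.09-fold lower. Of these 3 helicases only Ifih1 passed 1.5-fold, and the ligase Trim25 lay opposite to it. With 2 of 4 above 0 and 2 below, the median of the sensors was -0.22.

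Of the 3 receptor subunits only Ifnar2 passed 2-fold, and its probe sets disagreed. Ifnar2, the high-affinity subunit of the type I receptor, stood at 33.1 in CR against 73.9 in AL (-1.16) on its brightest probe set. Another probe set stood at 49.9 in CR against 36.5 in AL (0.45), and the last at 9.29 in CR against 11.2 in AL (-0.27). Averaged over its probe sets the Ifnar2 difference was -0.33, so the 2-fold value holds for 1 probe set of 3. The suffixes of all 3 mark probes shared between transcripts, but the probe set above 0 is an _x_at set and the others are _a_at sets. Ifnar2 is known for a soluble and a membrane form. Which form each probe set reads, and whether it reads other sequences, was not analysed here. Ifnar1, the partner subunit, stood at 16.3 in CR against 15.3 in AL (0.09). Ifngr1, the binding subunit of the interferon gamma receptor, stood at 42.4 in CR against 52.2 in AL (-0.30). Neither of them reached 1.5-fold.

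The signalling factors were the members closest to each other, and none of 8 reached 2-fold. Irf3, the factor that sensors activate by phosphorylation to start interferon production, stood at 69.6 in CR against 108 in AL (-0.63), 1.55-fold lower. Its other measured probe sets were lower as well, at -0.46 and -0.33, with 32.6 in CR against 44.9 in AL and 9.11 in CR against 11.4 in AL. Averaged over probe sets Irf3 was at -0.32, and without those that can match several transcripts at -0.33, both short of 1.5-fold. Irf7, the factor that amplifies interferon production, stood at 39.4 in CR against 33.2 in AL (0.25). Irf1, an activator of interferon gamma targets, stood at 128 in CR against 118 in AL (0.12), and its antagonist Irf2 at 130 in CR against 105 in AL (0.31). The interferon regulatory factors other than Irf3 thus lay within 1.5-fold. Irf8, a factor of macrophages and dendritic cells, stood at 19.8 in CR against 18.1 in AL (0.13), with another probe set at -0.05. Irf9 stood at 17.9 in CR against 18.6 in AL (-0.06), and Stat2, which works with it in the type I response, at 8.19 in CR against 8.43 in AL (-0.04), Stat2 being near the limit. Usp18, the protease that removes Isg15 from proteins and dampens signalling at Ifnar2, stood at 15.7 in CR against 13.3 in AL (0.23). The median of the 8 factors was 0.13 as deposited, with 5 above 0, and it was -0.25 when scaled on the Cre control and -0.89 on all hybridisation controls.

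Among the genes of peptide presentation, B2m and the peptide transporter genes were lower in CR and Tapbp was higher. B2m, the light chain of MHC class I molecules, stood at 1489 in CR against 2680 in AL (-0.85), 1.80-fold lower. Its other probe set stood at 287 in CR against 711 in AL (-1.31), so both were lower. Tap1 and Tap2 encode the transporter that brings peptides into the endoplasmic reticulum. Tap1 stood at 27.9 in CR against 39.0 in AL (-0.48). A dim second reading of Tap1, near the limit, was 8.39 in CR against 7.31 in AL (0.20). Tap2 stood at 13.8 in CR against 17.5 in AL (-0.33). Tapbp, or tapasin, which bridges the transporter and MHC class I, stood at 213 in CR against 148 in AL (0.53), with another probe set at 11.3 in CR against 10.8 in AL (0.06). The 4 genes had a median of -0.41, with 3 below 0. When probe sets with shared probes were left out, only Tap1 and Tapbp were left, and the median was 0.02.

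**Figure D3:**
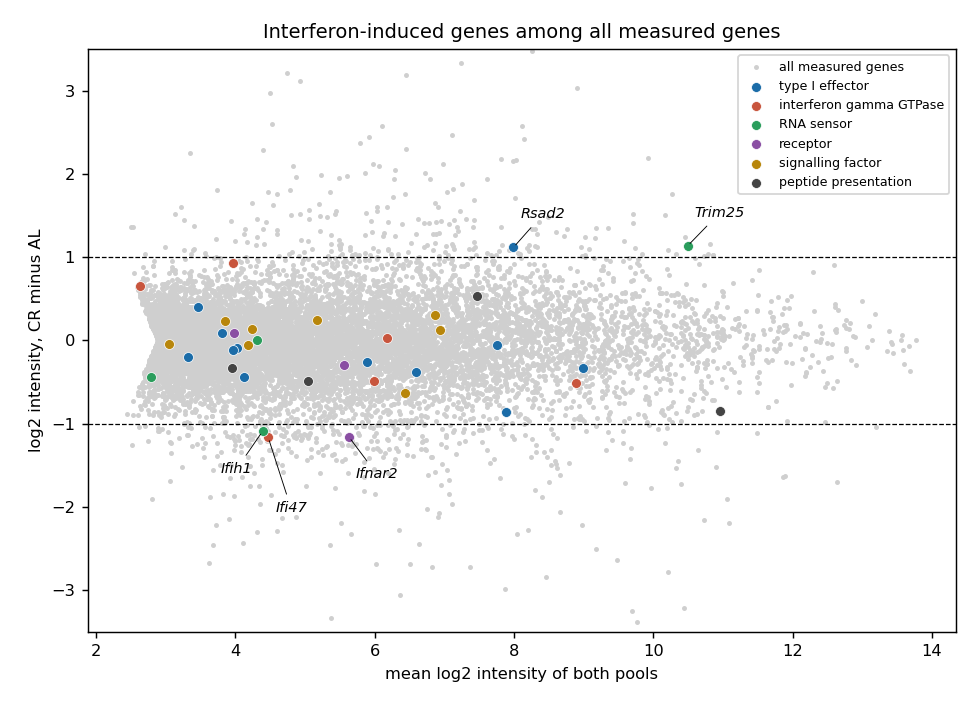
Log2 difference, CR minus AL, against the mean log2 intensity of both pools for all 12644 measured genes (grey) and the 37 measured members (coloured by role); dashed lines mark 2-fold, and 15 genes lie beyond the axis at 3.5. The members lie within the cloud of all genes, and the 5 named ones are past 2-fold.

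The roles were then set side by side with interferon genes outside the member list. A list of 104 other interferon-related genes held 87 with a probe set and 76 measured. Of these, 0 were at least 2-fold higher and 3 at least 2-fold lower (3.95%, against 2.79% of all measured genes). At 1.5-fold, 1 was higher (1.32%, against 6.76%) and 21 were lower (27.6%, against 9.49%). In all, 51 of the 76 lay below 0 (67.1%, against 52.1%) and 24 above, with a median of -0.20. These shares are a description of the list in these pools, with no test, and the list was chosen with earlier results of these data known.

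Other effector genes made up much of the lower side, with 24 of 33 below 0 (72.7%, against 52.1% of all measured genes) and a median of -0.32. At 1.5-fold, 11 of them were lower (33.3%, against 9.49%) and 1 higher (3.03%, against 6.76%). Parp9, an ADP-ribosyltransferase that works with Dtx3l in interferon signalling, was the only one of the 33 past 2-fold. It stood at 23.3 in CR against 54.1 in AL (-1.21). Dtx3l did not share this direction on its brightest probe set, at 239 in CR against 178 in AL (0.42), with another probe set at -0.66. Ifitm3, a membrane protein that blocks virus entry, stood at 858 in CR against 1655 in AL (-0.95). Ly6e, a surface protein induced by interferon, stood at 144 in CR against 277 in AL (-0.94), but its other probe set was at 0.04. Parp9, Ifitm3 and Ly6e were lower on their brightest probe sets, as was Lgals9, which encodes galectin 9, at 10.4 in CR against 19.6 in AL (-0.92). The single gene at least 1.5-fold higher was Tor3a, named after its value was seen. It stood at 11.8 in CR and lay below the limit in AL, at least 1.6-fold higher, but its other probe set was at 0.19.

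**Figure D4:**
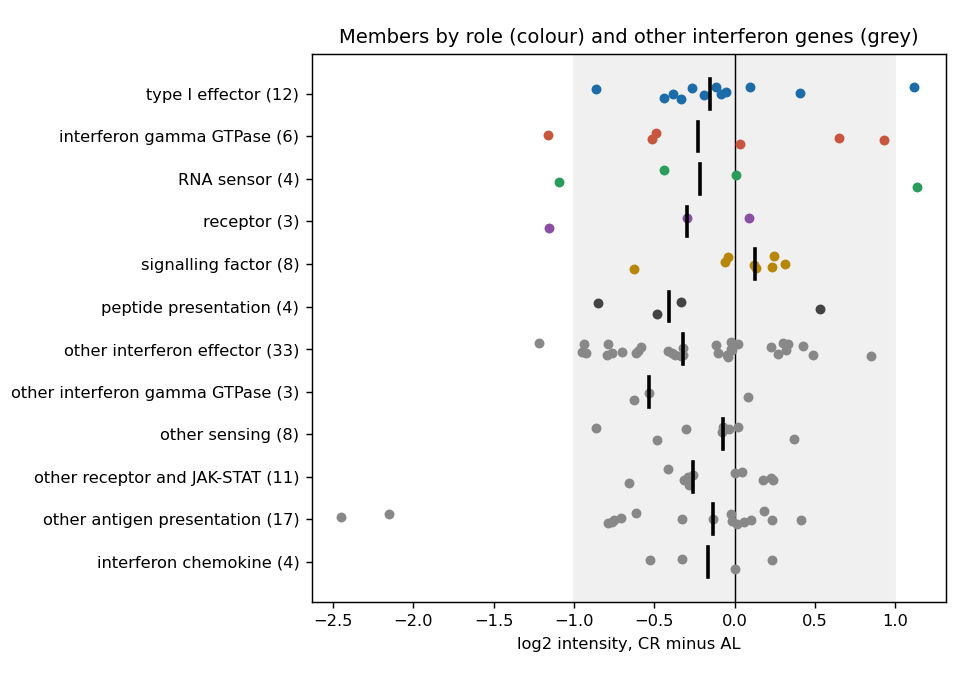
Log2 difference, CR minus AL, of each measured member by role (coloured points) and of the other interferon genes by list (grey points), with the number of genes in brackets; black bars are medians and the grey band marks less than 2-fold. The medians of the member roles run from -0.41 to 0.13, and the lowest grey points are the endoplasmic reticulum proteins Pdia3 and Calr.

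Of the other GTPases, Gbp6 stood at 21.8 in CR against 33.7 in AL (-0.63) and Irgm2, a relative of Irgm1, at 121 in CR against 175 in AL (-0.54). Gbp7 stood at 65.8 in CR against 62.1 in AL (0.08), with another probe set at -0.54. Of the other sensing genes, Ikbke, a kinase that activates Irf3, stood at 15.1 in CR against 27.3 in AL (-0.86). Its relative Tbk1 stood at 242 in CR against 338 in AL (-0.48), with another probe set at -1.5. Both kinases were thus lower in CR, as was Mavs, the adaptor of the RNA helicases, at -0.30, whereas the RNA sensor Tlr3 was higher at 0.37. Among receptors and JAK-STAT genes none of 11 reached 2-fold, and the kinase Jak1 was lowest at -0.66, with another probe set at 0.19. Tyk2, the kinase bound to Ifnar1, stood at -0.31 with another probe set at 0.25, and the feedback inhibitor Socs3 stood at -0.41. Both of the antigen presentation genes past 2-fold, Calr and Pdia3, are general folding proteins of the endoplasmic reticulum that also load MHC class I. Calr stood at 803 in CR against 3571 in AL (-2.15). Pdia3 lay below the limit in CR and at 29.9 in AL, at least 4.05-fold lower, but its other probe set was at 0.13. Without Calr, Canx and Pdia3, 73 other genes remained, with a median of -0.12. Of these, 1 was at least 2-fold lower (1.37%, against 2.79% of all measured genes). At 1.5-fold, 18 were lower (24.7%, against 9.49%) and 1 higher (1.37%, against 6.76%). The immunoproteasome gene Psmb8 stood at 24.1 in CR against 41.0 in AL (-0.77), with another probe set at 0.14. The other immunoproteasome genes lay in opposite directions, Psmb9 lower at -0.75 and Psmb10 higher at 0.41, each on its only measured probe set. Of the interferon-induced chemokines, Cxcl11 lay below the limit in CR, at 5.82 in CR against 8.38 in AL, at least 1.14-fold lower. Cxcl9 and Cxcl10 stood at 47.9 in CR against 40.8 in AL (0.23) and at 13.9 in both pools, and Ccl5 at 9.09 in CR against 11.4 in AL (-0.33).

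The start-site windows of the members held the ISRE core and the GAS more often than those of other genes, and members with and without the core lay on both sides of 0. RefSeq windows of 300 bases, from 250 before to 50 after the start, were given for 34 of the 42 members. The ISRE core was found in 16 of the 34 (47.1%), against 3.99% of 27025 genes with such a window. The GAS was found in 12 (35.3%), against 9.55% of those genes. The stretches below are shown to let the cores of bright and dim members be read side by side, with both patterns in capitals. In Bst2, Igtp and Irf2 the window held both, and in Bst2 the GAS overlaps the ISRE core.
B2m (chr2:122147528-122147577, plus strand): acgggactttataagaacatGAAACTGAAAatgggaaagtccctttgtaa
Gbp3 (chr3:142559979-142560034, plus strand): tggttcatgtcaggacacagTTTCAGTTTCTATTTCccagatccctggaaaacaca
Gbp2 (chr3:142620584-142620633, plus strand): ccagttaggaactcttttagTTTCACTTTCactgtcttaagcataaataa
Igtp (chr11:58199502-58199551, plus strand): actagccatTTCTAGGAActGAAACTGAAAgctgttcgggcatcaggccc
Irgm1 (chr11:48871421-48871470, minus strand): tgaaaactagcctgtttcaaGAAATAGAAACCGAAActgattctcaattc
Bst2 (chr8:71537567-71537622, minus strand): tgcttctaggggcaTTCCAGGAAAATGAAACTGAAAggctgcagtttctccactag
Ifit1 (chr19:34640765-34640833, plus strand): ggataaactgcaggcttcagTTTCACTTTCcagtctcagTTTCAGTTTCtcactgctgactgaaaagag
Irf2 (chr8:46739495-46739533, plus strand): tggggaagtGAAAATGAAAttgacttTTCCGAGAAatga
A match says only that the letters are there. The 15 measured members with an ISRE core had a median difference of -0.05, with 6 above 0 and 9 below. The 15 without it had a median of -0.06, with 7 above and 8 below. Of the 5 members past 2-fold with a window, Rsad2 and Ifih1 held the core and lay in opposite directions. The 11 measured members with a GAS had a median of 0.03, and the 19 without it had one of -0.12. Over all measured genes with a window, those with an ISRE core had a median of -0.04 over 359 genes and those without one of -0.03 over 9801.

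**Figure D5:**
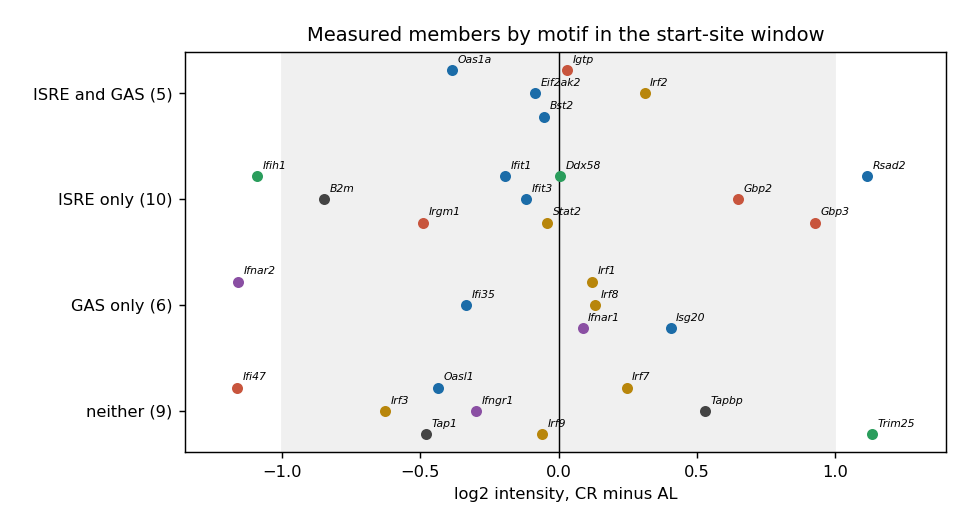
Log2 difference, CR minus AL, of 30 measured members with a RefSeq window, by the motifs found in it (ISRE core, GAS, both or neither; number of genes in brackets) and coloured by role; the grey band marks less than 2-fold. Every class has members on both sides of 0, and the members past 2-fold are Rsad2 and Ifih1 (ISRE only), Ifnar2 (GAS only) and Trim25 and Ifi47 (neither).

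On their brightest probe sets, markers of several cell types were lower in CR beside these members. For scale, 52.1% of all measured genes lay below 0. Sums here run over all markers of a list that had a probe set, those below the limit included. All 7 measured Kupffer cell markers of 8 listed lay below 0, with a median of -0.57 and a summed intensity of 1745 in CR against 1973 in AL, though Timd4 passed the limit in AL alone. Cd5l, Csf1r and Marco among them were close to 0, at -0.08, -0.09 and -0.13. Of 6 listed neutrophil markers, 3 were measured and all were lower, and the 4 with a probe set had sums of 42.2 in CR against 116 in AL, led by S100a8 at 10.9 in CR against 53.4 in AL. T and NK cell markers, 4 of 8 measured, had sums of 76.2 in CR against 81.0 in AL, and plasmacytoid dendritic cell markers, 3 of 4 measured, had sums of 60.4 in CR against 57.5 in AL. The endothelial sum was 392 in CR against 442 in AL, with 2 of 5 measured markers below 0. The stellate cell sum was 1372 in CR against 1461 in AL, with 4 of 5 below 0. The hepatocyte sum was 50784 in CR against 53418 in AL, with 6 of 8 below 0. Csf1r, Apob and Clec4g, lower on their brightest probe sets, each had another probe set above 0, at 0.18, 0.20 and 0.20. Lyve1, higher on its brightest, had another at -0.02. None of the B cell markers reached the limit, and the cholangiocyte sum was 54.8 in CR against 55.7 in AL. No marker was at 0 on these arrays, since RMA gives every probe set a positive value. The part of these cells in the lower readings of Ifih1, Ifi47, B2m and other members was not tested.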

How the data were processed

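Total RNA was extracted with Trizol, pooled from 3 mice per group and labelled as biotinylated cRNA from 6 ug, per the labels' protocols. The authors deposited 1 intensity per probe set and pool, made with RMA per the submitters' processing notes. Its version and options are not given in the sources used here, and the values are on a linear scale. No detection calls came with the intensities.

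The members and lists were chosen with earlier results of these data known. Intensities were log2 transformed and CR minus AL was taken. Symbols came from the platform annotation, and for all 40 members with a probe set the Entrez ID matched the RefSeq table (GRCm38.p6). The build of the array design is not given in the sources used here. A gene was represented by its brightest probe set on average, and it was measured if either value reached the median of all values (7.38). Members at least 2-fold or 1.5-fold different were counted, as rules of size and not tests, beside the same share of all measured genes. Among 4924 genes with several measured probe sets, the median SD of their differences was 0.288, the spread used to judge whether a value moved under an alternative. Every member is accounted for in the text. Of other interferon genes, those past 2-fold and up to 4 of the largest differences per list are named. Tor3a, Dtx3l, Psmb9 and Psmb10 are named beyond that rule, after their values were seen.

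Alternatives were the mean over probe sets, leaving out _x_at, _s_at and _a_at probe sets (which can match several transcripts), no limit, a limit at the 75th percentile (21.0), median centring and a loess trend (span 0.4). Chosen after seeing the data were scaling on the hybridisation controls, raising low values to the limit and keeping genes with probe sets of 1 sign. The calculation was tested on simulated data with planted differences and little noise. That checks the code, not how reliable a 2-fold difference between single arrays is. Precision is limited by having 1 array for each diet. Calculations used pandas 2.3.3 and numpy 2.4.6 under Python 3.11.15, the loess came from statsmodels 0.14.6, and plots from matplotlib 3.10.9.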

Additional observations from a re-analysis of the deposited data

How the results depend on the processing

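No paired analysis was possible because each diet had 1 pooled array, and no replicate could be left out. Against the 2 members at least 2-fold higher and 3 lower in CR, the 1.5-fold rule gave 4 and 6. The mean over probe sets, those below the limit included, gave 0 higher and 3 lower over 34 members. Trim25 was then at 0.92, just short of 2-fold, Rsad2 at 0.39, Ifnar2 at -0.33 and Irf3 at -0.32. Of all genes there, 0.964% were higher and 2.02% lower. Leaving out probe sets that can match several transcripts gave 1 higher and 3 lower over 25 members, against 1.41% and 2.92% of all genes. Ifi35 stood in place of Ifnar2 among those 3. Leaving out such probe sets also moved the peptide presentation median to 0.02 over 2 genes and Irf3 to -0.33. At the 75th percentile limit the receptor median was -0.73 over 2 genes, and fewer genes entered. No limit, median centring, the loess trend, raising low values and keeping genes with probe sets of 1 sign left both counts within 1.5 times and each median within 0.288, though raising low values moved Gbp2 to 0.07. Scaling on all hybridisation controls gave 0 members higher and 23 lower (54.2% of all genes were lower there). Scaling on Cre gave 0 and 6, where 0.759% of all genes were higher and 8.15% lower. On all controls the medians were -1.10 for all members, -1.17 for type I effectors, -1.24 for interferon gamma GTPases, -1.23 for RNA sensors, -1.31 for receptors, -0.89 for signalling factors and -1.42 for peptide presentation. On Cre they were -0.46, -0.53, -0.60, -0.59, -0.67, -0.25 and -0.78 in the same order. Scaled on all hybridisation controls, Trim25 and Rsad2 were at 0.12 and 0.10 (0.76 and 0.74 on Cre), Gbp3 was at -0.09 and Gbp2, which lies below the limit in AL, at -0.37. The 5 members past 2-fold changed sign under no alternative that gave them a value. Values near the limit, such as those of the Ifit genes, Stat2, Gbp2 and Dhx58, cannot show a small difference. Ifi47 and Ifih1 were also dim in CR, at 14.8 and 14.4, each on 1 probe set, so the size of their folds is uncertain.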
